A study of Drosophila melanogaster with 36 samples.

Results

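The genes faf, ec, Snoo, tmod, Nubpl, Sod3, Cadps and regucalcin were each measured in the wing disc by several probe sets whose differences between selected lines disagreed in size or sign. A probe set is a group of short probes that reads one stretch of a gene's transcripts, so several probe sets of a gene can read different transcripts or different parts of one. These 8 genes come from 1094 with 2 or more probe sets of their own, among 11982 genes with any. They were chosen because 1 probe set differed strongly between high and low lines of the Massachusetts (MA) population while another did not. All 21 probe sets annotated only to a single one of them were found, and 20 of them passed a filter on low signal. The MA values of these genes below therefore describe the choice and are given with no p-value.

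The arrays hold RNA of wing discs, the larval tissue that makes the adult wing and notum, taken 6.2 h before pupariation from larvae, kept at 20 °C, of lines bred for high or low values of a wing shape trait. The high founder H and the low founder L came from MA flies after 20 generations of selection and were isogenized. The high lines A1, B1, C1 and D1 and the low lines A2, B2, C2 and D2 were reselected for 25 generations, and then inbred for 10, from hybrid populations A to D of H by L that had mixed for 34 generations. A high and a low line selected from a separate California (CA) population completed 12 lines with 3 arrays each. Every line is 1 selected stock and each tube pooled 100 discs. Nothing in the labels gives the 3 arrays of a line a separate culture each, and p-values then rest on a spread between arrays that may be technical.

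The genes faf and ec encode members of the ubiquitin-specific protease family, whose active enzymes remove ubiquitin from other proteins. In the fly eye faf acts in ligand endocytosis for Notch signalling and ec in the removal of surplus retinal cells. Snoo belongs to the Ski and Sno family of nuclear co-regulators of Smad proteins, which carry the Dpp and activin signals that pattern and grow the wing disc. Tropomodulin, the product of tmod, caps the slow-growing end of actin filaments. Nubpl is known in human cells for delivering iron-sulfur clusters to respiratory complex I, Sod3 is a secreted superoxide dismutase, Cadps primes dense-core vesicles for calcium-triggered release, and regucalcin is named for a calcium-binding protein of mammals. Snoo and Nubpl lie on chromosome arm 2L, Sod3 on 2R, faf and tmod on 3R, ec and regucalcin on X, and Cadps on chromosome 4.

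The signals are MAS5 values, a linear brightness per probe set, and differences are log2 high minus low, so that 1 unit is 2-fold. In the naming of the array's maker, the ending a_at marks probes shared by several transcripts of a gene and s_at probes shared by transcripts of more than one gene. The transcripts that each probe set reads, and sequence differences between lines under the probes, were not analysed here. Array medians ran from 243.2 to 433.5, and the filter level, the mean log2 signal of the median probe set, corresponds to a signal of 260 (8.02 on the log2 scale). All 16 wing disc markers on the array lay above it. Of the neuron markers 1 of 8 did, of the muscle markers 4 of 9 and of the fat body markers 1 of 6. All 7 trachea markers on the array also lay above it. Their summed signal was 133474 to 157689 in MA high lines and 147161 to 155091 in MA low lines, which overlap. The summed signal of the 6 fat body markers was 991 to 5605 in MA high lines and 837 to 1434 in MA low lines. These ranges overlap, and the sum was 1201 in CA high and 2831 in CA low. The summed signal of 10 hemocyte markers, all above the filter level, was 6012 to 9314 in MA high lines and 10691 to 16662 in MA low lines, without overlap, and 12140 in CA high and 17093 in CA low. Its part in the differences below was not tested, and in whole discs fewer cells of a type and less RNA per cell cannot be told apart. In every pair the high line carries the lower title numbers, so an effect of that order and the direction of selection cannot be told apart.

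**Figure D1:**
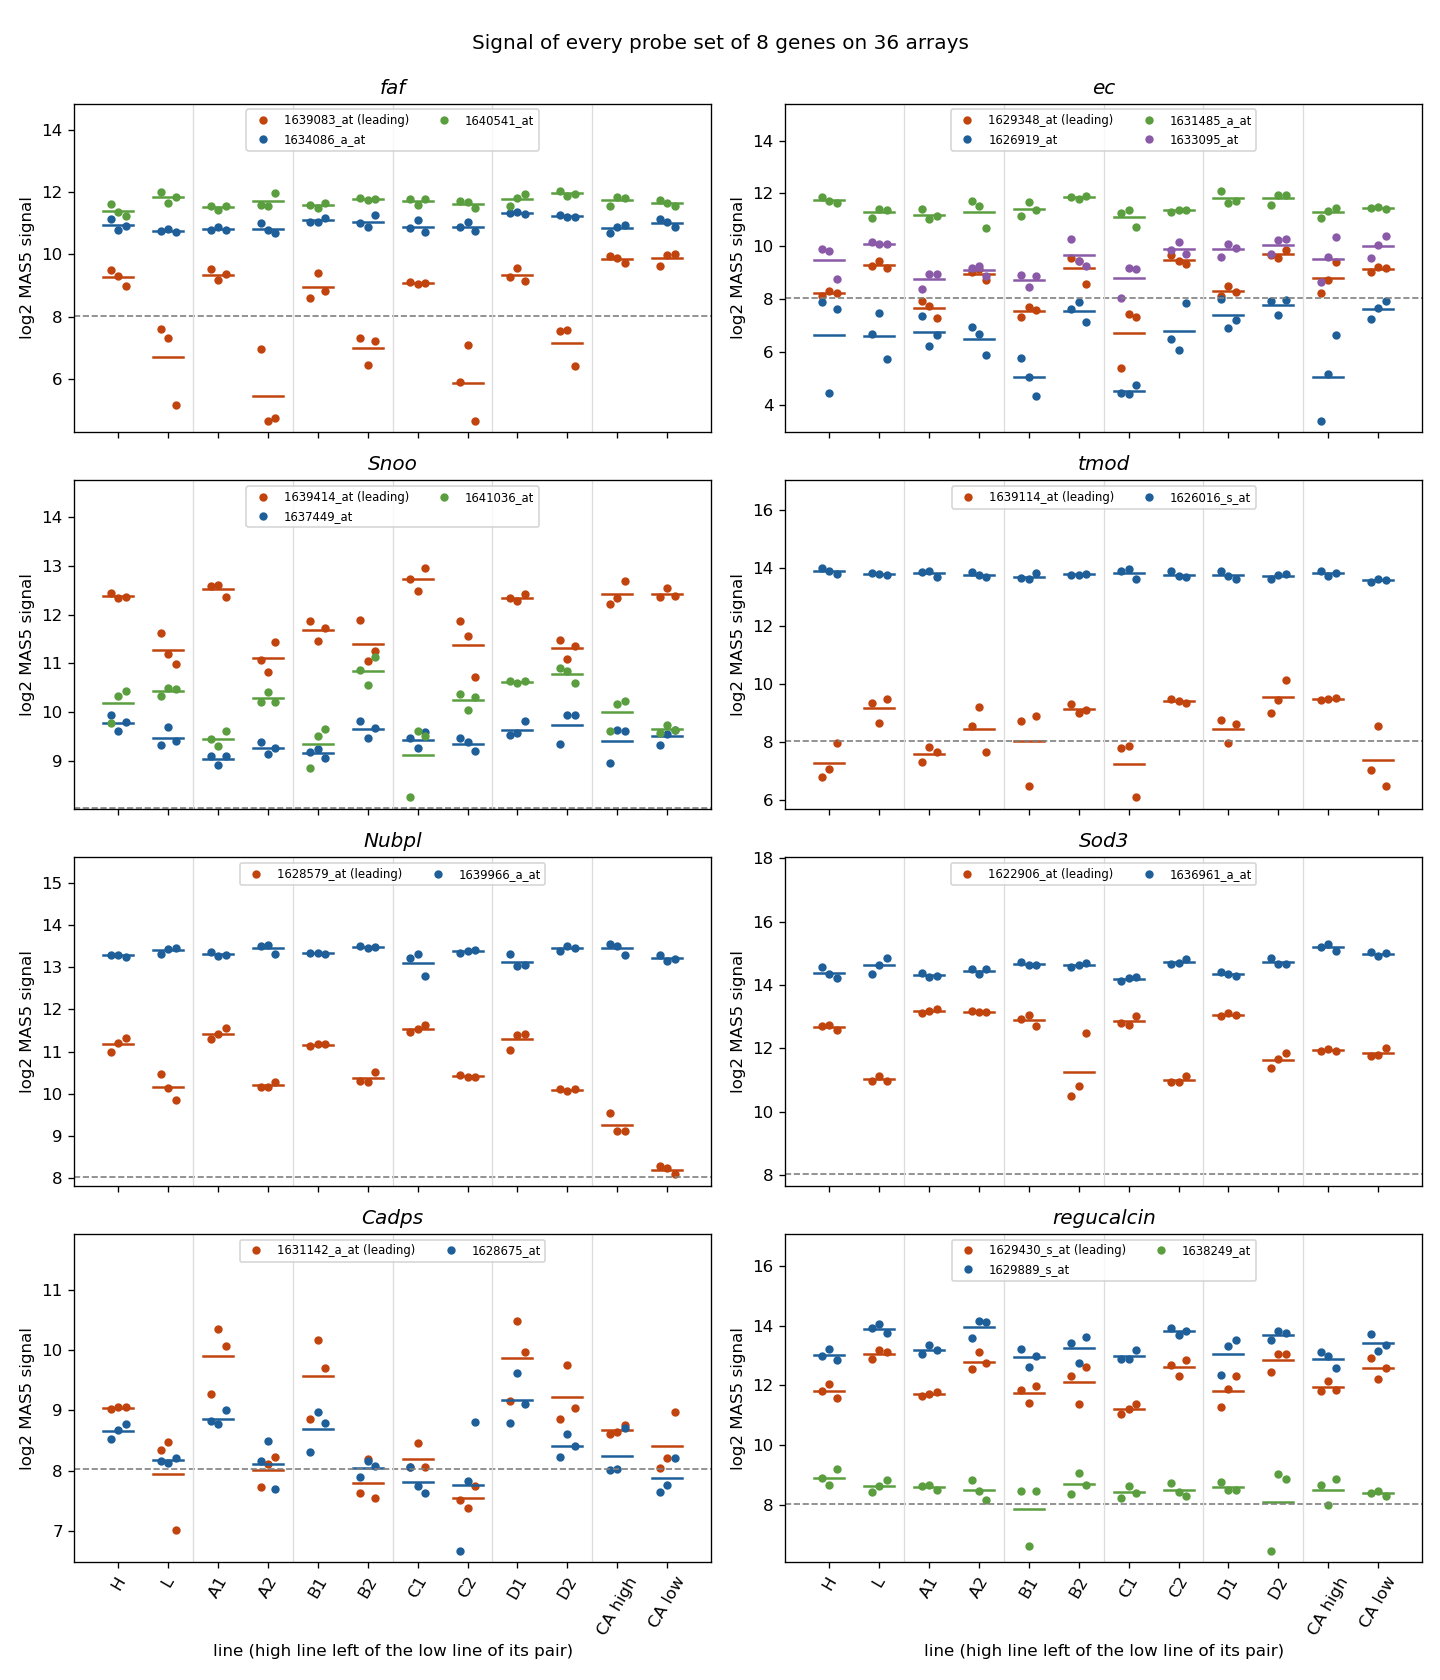
Log2 MAS5 signal (vertical axis) of every probe set of the 8 genes on each array, by line (horizontal axis, high line left of the low line of its pair). Points are arrays, short bars are line means and the dashed line is the filter level of 8.02. The leading probe set of faf lies above the dashed line in H and A1 to D1 and below it in L and A2 to D2, while the other faf probe sets stay above it in every line.

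The probe set of each gene with the largest MA difference is called its leading probe set. Of the 8 leading probe sets, 5 were higher and 3 lower in MA high lines, and all 8 had 1 sign in 5 of 5 pairs, as the choice of genes favours. The line means of MA high and low lines did not overlap for 8 of the 20 tested probe sets, against 8.39% of all 9385 tested. This is the contrast that chose the genes, so nothing is read from it. The median absolute MA difference was 1.26 for the 8 leading probe sets, 0.20 for the other probe sets of the 8 genes and 0.10 for all tested probe sets. In 6 of the 8 genes the leading probe set was not the brightest of its gene.

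The ubiquitin protease gene faf showed the widest gap of the 8. Its probe set 1639083_at had mean signals of 623 in H, 658 in A1, 505 in B1, 543 in C1 and 648 in D1. It had 129.6 in L, 58.4 in A2, 131 in B2, 73.2 in C2 and 153 in D2. The lowest array of any MA high line stood at 391.3 and the highest of any MA low line at 193.2, so the 15 high and 15 low arrays did not overlap. The difference averaged 2.76 ± 0.80 (SD, n = 5 pairs), or 6.78-fold, and the low lines lay under the filter level, with no detection calls to tell them from background. Adding 29.4 to every signal before taking logs gave 2.33.

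The other faf probe sets were bright and nearly level. Probe set 1640541_at averaged 3130 ± 317 in MA high lines and 3553 ± 302 in MA low lines (SD, n = 5 lines each), a difference of -0.18 ± 0.18. Probe set 1634086_a_at averaged 2092 ± 301 in MA high lines and 2001 ± 263 in MA low lines, a difference of 0.06 ± 0.08. Both ranges overlapped between directions. So 1 faf probe set marked the direction of selection in every MA line, and both brighter ones did not.

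Both CA lines had faf 1639083_at above every MA line. The CA high arrays read 978.6, 940.5 and 849.1 and the CA low arrays 787.1, 1005.1 and 1040.4, and the groups overlapped. The CA pair was not used in choosing the genes, and there limma gave a difference of -0.02 ± 0.55 (SE, adjusted p = 0.985), with a 95% interval of -1.14 to 1.09.

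The second gene of the ubiquitin protease family, ec, had 4 probe sets that ran from level to strongly lower in MA high lines. The leading probe set 1629348_at had line means of 299 in H, 203 in A1, 186 in B1, 126 in C1 and 314 in D1, against 623 in L, 498 in A2, 607 in B2, 718 in C2 and 827 in D2. The arrays did not overlap, with 360.4 the highest in a high line and 383.6 the lowest in a low line. Its difference was -1.64 ± 0.66 (SD, n = 5 pairs). Lines A1, B1 and C1 lay under the filter level, so its size is uncertain. Probe set 1633095_at gave -0.64 ± 0.39, below 0 in all 5 pairs but with overlapping lines, and the brightest, 1631485_a_at, gave -0.07 ± 0.33, with 3 pairs below 0 and 2 above.

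The fourth ec probe set, 1626919_at, had a mean signal of 91.7 and did not pass the filter. Its MA pair differences were 0.04 (founders), 0.25 (A), -2.51 (B), -2.26 (C) and -0.39 (D). In CA its arrays read 10.5, 35.3 and 98.7 in the high line and 150.4, 201.4 and 243 in the low line, without overlap, and all of them lie under the filter level. The tested ec probe sets gave -0.35 ± 0.35 (1629348_at, adjusted p = 0.583), -0.47 ± 0.35 (1633095_at, adjusted p = 0.431) and -0.16 ± 0.19 (1631485_a_at, adjusted p = 0.662) in the CA pair by limma (± SE). All had the MA sign and none passed the test.

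The Smad co-regulator gene Snoo had 2 probe sets with MA differences over 0.5 in size and of opposite sign, as no other of the 8 genes did. Probe set 1639414_at, the brightest of the gene, had line means of 5340.2 in H, 5905 in A1, 3321 in B1, 6852 in C1 and 5204 in D1, against 2516 in L, 2244 in A2, 2785 in B2, 2816 in C2 and 2549 in D2. Every high line stood above every low line, with B1 closest to the low lines, although single arrays overlapped, and the difference was 1.04 ± 0.45 (SD, n = 5 pairs). Probe set 1641036_at was lower in the high line of all 5 pairs, with differences of -0.26 in the founders, -0.83 in pair A, -1.51 in B, -1.12 in C and -0.16 in D, averaging -0.78 ± 0.57. The third, 1637449_at, gave -0.09 ± 0.30.

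The size of these Snoo differences varied between MA pairs. The moderated F value of limma sets the spread of the difference over 5 MA pairs against the spread between arrays. Over all probe sets, 15.9% had an F value with an adjusted p below 0.05, and of the 20 tested probe sets of these 8 genes 4 did, 2 in Snoo and 2 in Sod3. The genes were chosen on the same pair values, so their F values are a description and nothing is read from that count. Probe set 1641036_at had an F value of 5.50, with its difference largest in size in pair B and smallest in pair D. Probe set 1639414_at had an F value of 4.44, with 0.29 in pair B and 1.04 to 1.41 in the others. Over 37 alternatives its F value ran from 2.72 to 6.09, and in 17 of them its adjusted p was no longer below 0.05.

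In CA, Snoo 1639414_at read 4764.4, 5175.7 and 6614.5 in the high line and 5247.9, 5941.4 and 5321.2 in the low line. Both CA lines thus sat among the MA high lines and overlapped each other, with a difference of -0.01 ± 0.21 (SE, adjusted p = 0.987 by limma) and a 95% interval of -0.44 to 0.43. Probe set 1641036_at gave 0.35 ± 0.24 there (adjusted p = 0.394).

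For tmod, the tropomodulin gene, the dim probe set 1639114_at pointed one way in MA and the other way in CA. Its MA line means were 165 in H, 195 in A1, 328 in B1, 172 in C1 and 357 in D1, against 588 in L, 384 in A2, 563 in B2, 679.8 in C2 and 780.0 in D2. The lines did not overlap although single arrays did, and the difference was -1.42 ± 0.57 (SD, n = 5 pairs). In CA the arrays read 697, 707 and 728.1 in the high line, against 131, 377.8 and 90.1 in the low line. The CA high line rose over the CA low line by 2.11 ± 0.53 (SE, adjusted p = 0.00448 by limma), all 3 arrays higher, and without replicate 3 of CA low the adjusted p was 0.0502. Lines H, A1, C1 and CA low (mean 200) lay under the filter level, so the size of these differences is uncertain.

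The bright tmod probe set 1626016_s_at averaged 14213 ± 765 in MA high lines and 13901 ± 258 in MA low lines, a difference of 0.03 ± 0.07 (SD, n = 5 pairs). It carries the ending s_at, and is annotated to tmod alone in the annotation used here. In CA it rose by 0.24 ± 0.08 (SE, adjusted p = 0.0411 by limma), a call that 9 of 13 alternatives ended. The ratio of the dim to the bright probe set, taken within each array so that array scaling cancels, rose by 1.87 ± 0.52 in CA (SE, adjusted p = 0.0155 by limma). Without replicate 1 or replicate 3 of CA low, the ratio had an adjusted p of 0.0641 and 0.124. Summed muscle marker signal was 8937 to 11335 in MA high lines and 9993 to 11532 in MA low lines, which overlap, and 8522 in CA high and 8242 in CA low.

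Nubpl, the complex I assembly gene, had the steadiest MA difference of the 8 leading probe sets. Probe set 1628579_at had line means of 2318 in H, 2765 in A1, 2294 in B1, 2992 in C1 and 2520.4 in D1, against 1161 in L, 1178 in A2, 1330.1 in B2, 1367 in C2 and 1096 in D2. The lowest high array stood at 2049.9 and the highest low array at 1470.8, and the pairs gave 0.79 to 1.23, a mean of 1.07 ± 0.18 (SD, n = 5 pairs). Its F value over pairs was 1.77.

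The same Nubpl probe set rose in CA by 1.06 ± 0.13 (SE, adjusted p = 3.5e-07 by limma), with 746.7, 560.1 and 554.6 in the high line and 310.9, 301.3 and 273.3 in the low line. Both CA lines lay under every MA line. The brighter probe set 1639966_a_at gave -0.20 ± 0.09 in MA (below 0 in all 5 pairs) and 0.23 ± 0.09 in CA (SE, adjusted p = 0.0753). Its line means were 8951 to 10336 in MA high lines and 10628 to 11437 in MA low lines, without overlap, although single arrays overlapped. So both Nubpl probe sets separated the MA lines, with opposite sign and unlike size. The CA arrays of 1639966_a_at did not overlap either, with the high line above. It stood at 9685 ± 658 in MA high lines, 11068 ± 331 in MA low lines, 11200.5 in CA high and 9519 in CA low, so it did not show the low CA level of the other probe set. The ratio between both probe sets rose in CA by 0.83 ± 0.19 (SE, adjusted p = 0.00317 by limma), and was called under all 13 alternatives, with adjusted p from 0.00204 to 0.0269.

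**Figure D2:**
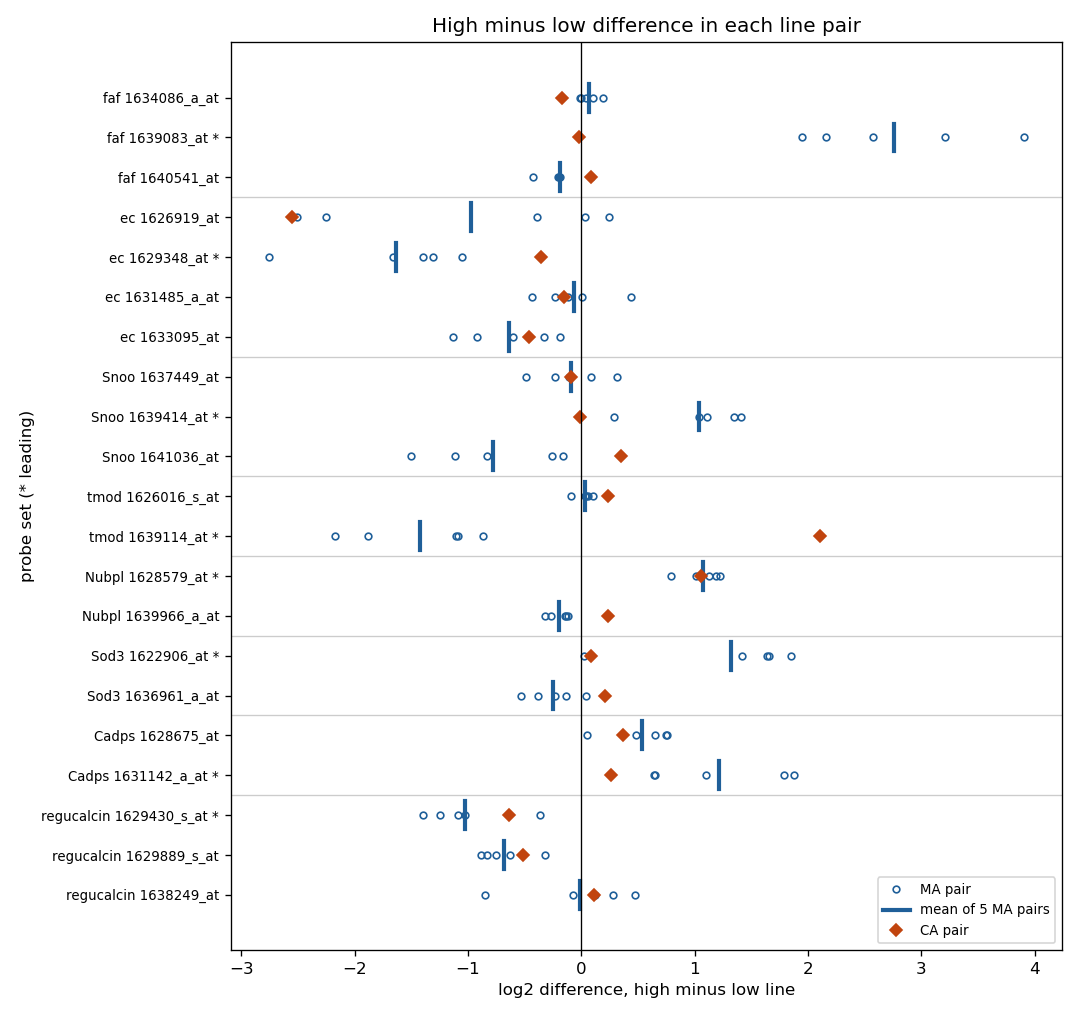
Log2 high minus low difference (horizontal axis) of each probe set (rows, leading ones starred) in the 5 MA pairs (open circles), their mean (bars) and the CA pair (diamonds). The CA diamond of tmod 1639114_at lies at 2.11, opposite to its MA pairs, that of Nubpl 1628579_at at 1.06, among its MA pairs, and those of faf 1639083_at and Snoo 1639414_at near 0.

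The superoxide dismutase gene Sod3 showed a difference in 4 of the 5 MA pairs. Probe set 1622906_at had line means of 6542 in H, 9244 in A1, 7627 in B1, 7432 in C1 and 8528 in D1, against 2072 in L, 9114 in A2, 2963 in B2, 2057 in C2 and 3223 in D2. Line A2 was at the level of the high lines, and pair A gave 0.02 while the other pairs gave 1.42 to 1.85. The F value over pairs was 9.27. In B2 the arrays read 1425.5, 1789.5 and 5672.6, and without the last, replicate 3, the F value was 64.3.

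The brighter Sod3 probe set 1636961_a_at averaged 21496 ± 2679 in MA high lines and 25514 ± 2057 in MA low lines (SD, n = 5 lines each), a difference of -0.25 ± 0.22. Its pair differences lay between -0.53 in pair C and 0.04 in pair B, with an F value of 6.07, or 2.61 after median centring of the arrays. In CA, 1622906_at read 3851.6, 4065.4 and 3857.3 in the high line, against 3487.2, 3539.6 and 4111.6 in the low line. The levels overlapped, with a difference of 0.08 ± 0.24 (SE, adjusted p = 0.881), and 1636961_a_at gave 0.21 ± 0.09 (adjusted p = 0.109).

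Cadps fits its description least. Both probe sets were higher in the high line of all 5 MA pairs, with 1631142_a_at at 1.21 ± 0.60 and 1628675_at at 0.54 ± 0.30 (SD, n = 5 pairs), so they differed in size and not in sign. Probe set 1631142_a_at averaged 727 ± 309 in MA high lines and 313 ± 174 in MA low lines, with C1 (294) among the low lines and D2 (618) among the high ones. The groups overlapped for both probe sets. In CA they gave 0.26 ± 0.37 and 0.37 ± 0.34 (SE, adjusted p = 0.720 and 0.552 by limma), with 95% intervals of -0.49 to 1.02 and -0.33 to 1.07. Cadps acts mainly in neurons and endocrine cells, and of the neuron markers on the array nSyb, brp, Syn, VGlut, ChAT, para and futsch were below the filter level. The summed signal of all 8 neuron markers was 1794 to 4243 in MA high lines and 1930.4 to 3999 in MA low lines, which overlap.

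In regucalcin the dim probe set was the one without a difference. The leading 1629430_s_at had line means of 3618 in H, 3364 in A1, 3478 in B1, 2387 in C1 and 3785 in D1, against 8566 in L, 7231 in A2, 4686 in B2, 6347 in C2 and 7515 in D2. The lines did not overlap, and B2 lay nearest the high lines. The difference was -1.02 ± 0.40 (SD, n = 5 pairs), and the still brighter 1629889_s_at gave -0.69 ± 0.23, both below 0 in 5 pairs. The third, 1638249_at, averaged 375 ± 79.4 in MA high lines and 382 ± 28.4 in MA low lines, a difference of -0.01 ± 0.51.

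In CA the bright regucalcin probe sets had the MA sign. Probe set 1629430_s_at read 3566.8, 4561.8 and 3674.3 in the high line and 7807.1, 4731 and 6089.3 in the low line, and 1629889_s_at read 8864.7, 8201.4 and 6127.8 in the high line and 13563.1, 9212.4 and 10368.5 in the low line. Neither overlapped, yet with differences of -0.64 ± 0.25 and -0.51 ± 0.22 (SE) neither passed (adjusted p = 0.0750 and 0.122 by limma). Both carry the ending s_at, and are annotated to regucalcin alone in the table used here.

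Over all 8 genes in CA, 3 of 20 tested probe sets were called by limma at an adjusted p below 0.05, against 17.0% of all 9385, and all 3 were higher in CA high. They were both tmod probe sets and Nubpl 1628579_at. Of the 12 ratios to the brightest probe set of a gene, 2 were called, tmod and Nubpl, against 11.2% of 645 such ratios over all genes. The CA intervals of the other leading-probe ratios were -1.25 to 1.03 for faf, -0.97 to 0.57 for ec, -0.68 to 0.42 for Sod3 and -0.43 to 0.19 for regucalcin. That regucalcin ratio sets both bright probe sets against each other, and the interval for the dim 1638249_at was -0.39 to 1.64. In Snoo and Cadps the leading probe set is the brightest and so served as partner. The intervals of the others were -0.58 to 0.41 (1637449_at) and -0.35 to 1.06 (1641036_at) for Snoo, and -0.68 to 0.89 for Cadps. The median absolute CA difference was 0.31 for the 8 leading probe sets, 0.23 for the other probe sets of these genes and 0.16 for all tested probe sets.

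**Figure D3:**
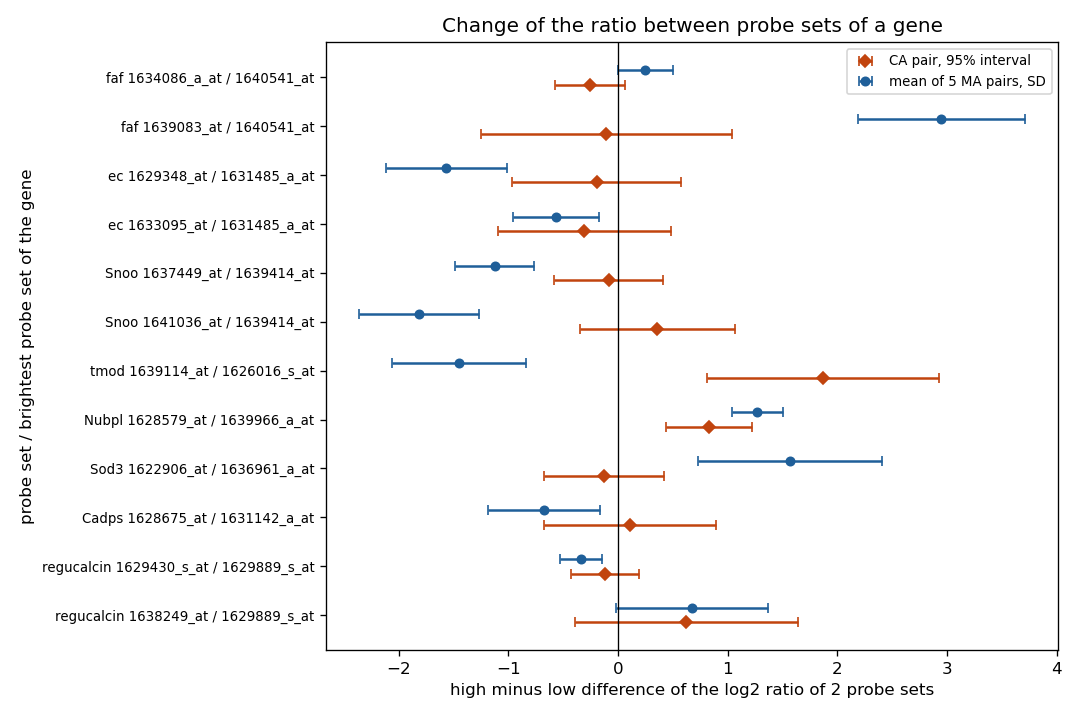
High minus low change of the log2 ratio between a probe set and the brightest probe set of its gene (horizontal axis) for 12 ratios (rows). Diamonds are the CA pair with 95% intervals from limma and circles the mean of 5 MA pairs with SD over pairs. The CA interval lies above 0 for tmod (0.81 to 2.93) and Nubpl (0.44 to 1.22) and includes 0 for the other 10 ratios.

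The range of differences within a gene was also taken for other genes. In MA such disagreement is what chose the 8 genes, so their MA ranks describe the choice and nothing is read from them. Among 476 genes with at least 2 tested probe sets, the range of MA differences within a gene had a median of 0.18, and 18 genes exceeded 1, of which 7 were among the 8 described. Faf ranked 2 (2.95), Snoo 3 (1.81), ec 6 (1.57), Sod3 7 (1.57), tmod 8 (1.45), Nubpl 11 (1.27), regucalcin 18 (1.01) and Cadps 47 (0.67). The genes mod(mdg4) (3.01), pdm3 (1.72) and ImpE1 (1.61) ranked among them without being chosen, and CG32982 (0.997) came just under regucalcin. In CA the median range was 0.32 and 49 genes exceeded 1, among them tmod alone of the 8, at 1.87 and rank 10. Faf ranked 283 there, at 0.26, and Sod3 375, at 0.13.

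**Figure D4:**
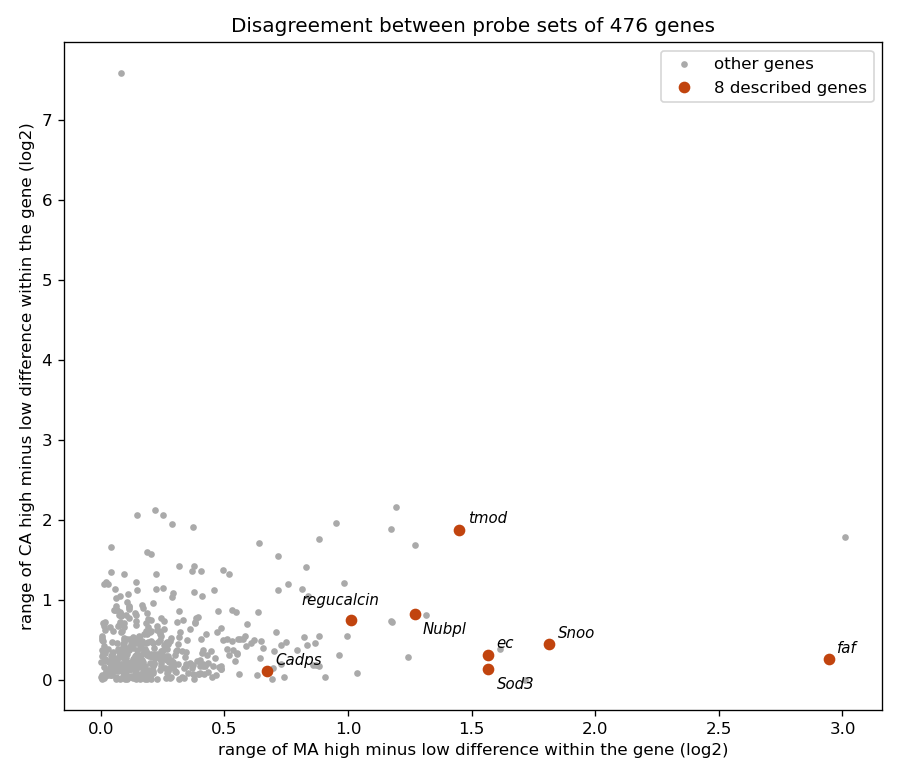
Range of the high minus low difference between the probe sets of a gene, in MA (horizontal axis) and in CA (vertical axis), both log2, for 476 genes. The 8 described genes are marked, and lie from 0.67 (Cadps) to 2.95 (faf) in MA and from 0.11 (Cadps) to 1.87 (tmod) in CA.

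Genes beside these 8 on the chromosome were read in the same way. Among 18 tested probe sets of 17 overlapping or adjacent genes, 3 were called between MA high and low lines over line pairs, against 9.69% of all tested, and 5 in CA, against 17.0%. Beside ec, on the X chromosome, the kinase gene Tlk had probe sets that also disagreed, with 0.83 ± 0.57 (SD over 5 pairs, adjusted p = 0.0497 by limma) and 0.12 ± 0.11 (adjusted p = 0.207). In CA the first of them fell by 1.51 (adjusted p = 0.0349). CG7102, beside Snoo on arm 2L, fell by 0.47 in MA (adjusted p = 0.0116) and by 0.71 in CA (adjusted p = 1.9e-07), and CG2246, beside tmod on arm 3R, rose by 0.28 in MA (adjusted p = 0.0142). Mccc1, which overlaps faf on arm 3R, gave -0.05 ± 0.05, and Tapdelta and sprt, on either side of Sod3, gave -0.10 ± 0.13 and 0.57 ± 0.50, none called.

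The 12 line means of other genes were set against each leading probe set by Pearson r, as a description over lines that share ancestry. The closest to faf 1639083_at were mRpL21 (r = 0.963), Map205 (0.949) and smg (0.945), and to ec 1629348_at CG15653 (0.964), Hipk (0.946) and Mettl2 (0.925). CkIIalpha-i3 (0.988), CG9331 (0.933) and rpk (0.925) were closest to Nubpl 1628579_at. For Sod3 they were CG12895 (0.926), aft (0.922) and CG12091 (0.912). For Snoo they were Atg4a (0.906), Brf (0.905) and TTLL4B (0.903), and for regucalcin CG6126 (0.939), NtR (0.922) and lva (0.914). For tmod they were dwg (0.912), indra (0.862) and CG14879 (0.854), and for Cadps drpr (0.872), Su(var)2-HP2 (0.869) and Npc1a (0.863). On the arm of their gene lay CG12895 and aft (2R, Sod3), Atg4a and TTLL4B (2L, Snoo), Map205 (3R, faf) and CG9331 (2L, Nubpl). CG14879 (3R, tmod) and lva (X, regucalcin) did so too, but none of those closest to ec or Cadps.

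Other genes of the same pathways, none of them among the 8, were also compared between MA high and low lines, where 4.92% of all tested probe sets were higher and 4.76% lower. Each gene was read by its brightest tested probe set. Of 24 other ubiquitin proteases, 0 rose and 2 fell (median -0.01), Usp47 by 0.71 (adjusted p = 0.00165 by limma) and Usp1 by 0.39 (adjusted p = 0.0140). Of 10 endocytosis genes that include the epsin gene lqf, the partner of faf (0.06 ± 0.08, SD over 5 pairs), 0 rose and 0 fell (median -0.02). Of 21 Dpp and activin pathway genes, 1 rose, the Smad gene Mad (0.36 ± 0.18, SD over 5 pairs), and 1 fell, the receptor gene wit (-0.17 ± 0.06), with a median of 0.02.

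Of 13 actin filament genes, 1 fell, the twinfilin gene twf (-0.45 ± 0.13, adjusted p = 0.00309 by limma). Of 12 antioxidant genes, enzymes and others, 1 rose, Gtpx (0.23 ± 0.09), and of 15 iron-sulfur assembly genes 1 rose, Fdx2 (0.22 ± 0.08). Of 26 complex I subunit genes 0 were called (median -0.01). Of 9 vesicle release genes, 2 rose, unc-13 (0.55 ± 0.30) and Rab27 (0.53 ± 0.10), and 1 fell, Rop (-0.38 ± 0.08). Of 12 calcium handling genes, 0 were called (median 0.00). In CA, where 7.97% of all tested probe sets were higher and 9.05% lower, the counts were 4 higher and 3 lower for complex I subunits, 3 and 3 for ubiquitin proteases, and from 0 to 1 higher and 0 to 3 lower for the other 7 lists.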

How the data were processed

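The authors deposited 1 linear intensity per probe set and array, made with MAS5 per the submitters' processing notes, whose version and scaling target are not given in the sources used here. Of 18952 probe sets, 183 controls were left out. Signals were taken to log2 with no pseudocount, and probe sets with a mean log2 value at or above the median probe set (9385) were tested in R 4.3.3 with limma 3.58.1, with an intensity trend and Benjamini-Hochberg adjustment over all of them. One fit held all 36 arrays with 1 mean per line, for the CA pair, for the F value over MA pairs (a description for these 8 genes) and, on within-array log2 ratios, for the probe sets of a gene. The MA difference was fitted on line means, blocked by pair. Errors are SE from limma or SD over lines or pairs, and tests are two-sided. Gene symbols came from the platform's annotation, in which 13647 probe sets had 1 symbol, 402 had more than 1 and 4720 had none, and gene order from a RefSeq gene table of the assembly Release 6 plus ISO1 MT. The number of arrays limits the precision. Named genes were all probe sets of the 8 genes, the overlapping and nearest tested neighbours, the 3 closest profiles and, per pathway list, the 2 highest and 2 lowest of the called genes. The members and lists were chosen with earlier results of these data known, and 3 list entries that had matched another gene's synonym were corrected or dropped after values were seen. The scripts' tests were checked on simulated data with noise between arrays and, beyond the set changes, no spread between lines. That check therefore does not cover the spread between lines.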

Additional observations from a re-analysis of the deposited data

Results flagged for a closer look

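The tmod probe set 1639114_at gave 2.11 in CA (adjusted p = 0.00448 by limma), opposite to all 5 MA pairs (-2.17 to -0.87). CA low and the MA high lines H, A1 and C1 lay under the filter level there. The difference between the populations itself was not tested, because the MA values had chosen the gene. The F values of 4 probe sets for unequal differences among MA pairs were high, as a description, since the same pair values had chosen the genes. They were 9.27 for Sod3 1622906_at, with differences between 0.02 in pair A and 1.85 in pair C, 6.07 for Sod3 1636961_a_at, 5.50 for Snoo 1641036_at and 4.44 for Snoo 1639414_at. Pair B thus held both the largest size for one Snoo probe set and the smallest for the other.

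Among 42 groups of 5 lines examined for a line standing apart, 2 had one, as chance gives in about 1 of 20 groups. Line D2 stood at a log2 signal of 9.22 for Cadps 1631142_a_at, where the other MA low lines had 7.55 to 8.02. Line C1 stood at 11.21 for regucalcin 1629430_s_at, where the other MA high lines had 11.71 to 11.83.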

How the results depend on the processing

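Over 72 results on the 8 genes and 1962 alternatives in all, 1926 kept their side of the threshold or moved by less than the SD over pairs. The other 36 did not, and of the results called in CA 0 reversed in sign. Some differences near 0 did change sign, such as faf 1639083_at in CA (-0.15 to 0.05) and regucalcin 1638249_at in MA (-0.18 to 0.20). The CA calls that were lost were those given above for tmod. Calls also appeared for Nubpl 1639966_a_at in CA without replicate 3 of CA high (adjusted p = 0.0322), and for regucalcin 1629430_s_at in CA without replicate 2 of CA low (adjusted p = 0.0401). The other changes were in F values over MA pairs, for probe sets of faf, ec, Snoo and Sod3, which are given as a description only. The count over all probe sets in CA was 1597, and 969 after median centring of the arrays, 1037 under the stricter filter, where fewer were tested, and 1241 to 1316 without 1 array. The ratio count was 72, and 16 under the stricter filter, 122 with the mean of the other probe sets as partner, where more ratios were tested, and 52 to 67 without 1 array. For unequal MA pairs it was 1489, and 926 with centred arrays and 1237 to 1824 without 1 array. For MA over line pairs it was 909, and 570 under the stricter filter, 618 without the intensity trend, 769 to 1001 without 1 array, and 369 without the founder pair, 580 without pair A and 478 without pair D. Centring on the median put the higher share of CA calls at 608 of 969, against 748 of 1597, and of MA calls at 268 of 657, against 462 of 909. The cause was not tested. Same-numbered arrays of both lines of a pair had deviations correlated from -0.06 to 0.19, with 3 of 18 over 0.1. These values cannot tell whether same-numbered arrays were handled together, and the main fits did not pair them. With the replicate block, 1645 were called in CA, 72 ratios, 1564 for unequal pairs, and 3132 in MA, where that fit rests on arrays and not on lines. Without detection calls, values under a signal of 260 have an uncertain size.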
